A study of Mus musculus with 20 samples.

Results

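The 44 genes described here encode the proteins that license replication origins and run the replication fork. They comprise 6 subunits of the origin recognition complex, 3 genes of helicase loading and its inhibition, 8 MCM genes, 7 genes of helicase activation, 6 polymerase and primase subunits, 6 genes of the sliding clamp and its loader, 2 of single-strand binding, 2 of Okazaki fragment maturation and 4 of deoxynucleotide supply. Each gene was read from a probeset of the Affymetrix MOE430 2.0 array annotated to that gene alone and, where it had several, from the one with the highest mean over the 20 arrays. All 44 were measured, among 18193 genes in all. Values are log2 intensities, so a difference of 1 is a doubling.

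Total RNA of 8 RbΔEC;Trp53ΔEC tumors (genotype k14Cre;p53loxP/loxP;pRbloxP/loxP), 7 Trp53ΔEC tumors (k14Cre;p53loxP/loxP) and 5 control skin samples, taken from wild type mice at 2 months, was hybridized, 1 array per sample, and all mice were on the FVB strain. The tumors were spontaneous squamous cell carcinomas, and Trp53 was deleted in both tumor genotypes. The Cre recombinase was driven by the keratin 14 promoter, active in stratified epithelia, so that the other cells of a tumor kept their alleles. By histology, 6 tumors were poorly differentiated (4 RbΔEC;Trp53ΔEC and 2 Trp53ΔEC), 4 were mixed (1 and 3) and 5 were undifferentiated or spindle cell carcinomas (3 and 2), the last called undifferentiated/spindle. Tumor ages are not among the labels, so effects of age and of the tumor cannot be told apart. Nor do the labels tie tumors to animals, so it is not known whether some tumors share a mouse. The p-values treat each sample as independent and reflect the spread among these samples, which may be technical in part. If tumors share a mouse, the p-values may be too small.

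In late mitosis and G1 the origin recognition complex (ORC) marks origins, and Cdc6 and Cdt1 load the MCM2-7 helicase onto them, which is called licensing. At the G1/S transition the Cdc7-Dbf4 kinase and Cdc45 with the GINS complex turn the loaded MCM ring into a running helicase, and primase, the polymerases, the PCNA clamp and its RFC loader follow. Many of these genes are textbook targets of the E2F factors, which the Rb protein holds back, and they are low in resting or differentiated epidermis and high in dividing basal cells.

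The arrays had medians of 5.58 to 5.63 in skin, 5.68 to 5.73 in RbΔEC;Trp53ΔEC and 5.65 to 5.75 in Trp53ΔEC tumors, so skin lay below all tumors. The Actb 3′ to 5′ signal difference, a sign of RNA integrity, was 0.50 to 1.19 in skin. It was 0.24 to 0.82 in RbΔEC;Trp53ΔEC and 0.28 to 0.81 in Trp53ΔEC tumors. Rb1, the gene deleted in the double mutants, was 6.55 to 8.14 in RbΔEC;Trp53ΔEC tumors, 7.85 to 8.84 in Trp53ΔEC tumors and 8.95 to 9.26 in skin. Among poorly differentiated tumors the genotypes did not overlap, with 6.88 to 7.53 in 4 RbΔEC;Trp53ΔEC tumors against 8.33 and 8.84 in 2 Trp53ΔEC tumors. Among undifferentiated/spindle tumors Rb1 was 8.02, 8.03 and 8.14 in RbΔEC;Trp53ΔEC against 7.86 and 7.93 in Trp53ΔEC, so this probeset, whose place relative to the deleted exons is not known here, checks nothing about the labels of these 5 libraries. Whole skin also holds muscle and fat. All 10 skeletal muscle markers and all 7 adipocyte markers were called lower in tumors, with mean levels of the muscle list of 4.94 to 8.88 in tumors and 13.35 to 13.88 in skin. The epidermal list, with 11 genes of basal and suprabasal keratinocytes, averaged 9.79 to 11.80 in poorly differentiated tumors, 5.52 to 9.15 in mixed, 5.08 to 8.52 in undifferentiated/spindle tumors and 11.94 to 12.22 in skin, with 3 of the 5 undifferentiated/spindle tumors at about 5.1. In such bulk RNA, fewer cells of a type and less RNA per cell cannot be told apart, and how far these marker shifts account for the differences below was not tested.

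Since E2F control is the shared feature for which these genes are known, the 250 bases before each start site were searched for the E2F-type motifs TTTCCCGC, TTTGGCGC, TTTCGCGC and TTTGCCGC on both strands, of which matches of TTTGGCGC and TTTCGCGC on opposite strands can overlap. The sequences were those of RefSeq, build GRCm38.p6, which held windows for 36 of the 44 genes (Gmnn, Mcm4, Gins1, Gins2, Gins4, Prim2, Pole and Rfc2 had none). A match was found for 9 of 36 genes (25%), namely Orc1, Orc3, Cdc6, Mcm5, Mcm6, Mcm7, Gins3, Pola1 and Rfc3, against 583 of all 27025 genes with a window (2.16%) and 455 of the 14452 that were measured here (3.15%). Mcm6 held 3 matches and Mcm5 held 2, with overlapping pairs in each. CCAAT, on either strand, was found for 22 of 36 (61.1%), against 39.4% of the measured genes, and the GC box GGGCGG for 26 of 36 (72.2%), against 53.4%. A match is a description of letters, and none was tested as a site. The brightest gene with an E2F-type match in each of 6 roles is shown over 150 bases, with the match in capitals, so that its place before the start site can be seen. Orc3 is at chr4:34614943-34615092 on the minus strand, Cdc6 at chr11:98907942-98908091 on the plus strand, Mcm7 at chr5:138171970-138172119 on the minus strand, Gins3 at chr8:95633409-95633558 on the plus strand, Pola1 at chrX:93632215-93632364 on the minus strand and Rfc3 at chr5:151651209-151651358 on the minus strand. Each runs 5′ to 3′ along its gene.
Orc3: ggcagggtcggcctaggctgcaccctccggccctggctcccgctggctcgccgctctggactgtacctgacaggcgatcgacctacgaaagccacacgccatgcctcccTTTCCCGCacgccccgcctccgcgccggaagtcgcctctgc
Cdc6: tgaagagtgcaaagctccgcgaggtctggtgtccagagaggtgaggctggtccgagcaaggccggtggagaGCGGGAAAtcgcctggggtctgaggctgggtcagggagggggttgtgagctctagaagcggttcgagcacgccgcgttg
Mcm7: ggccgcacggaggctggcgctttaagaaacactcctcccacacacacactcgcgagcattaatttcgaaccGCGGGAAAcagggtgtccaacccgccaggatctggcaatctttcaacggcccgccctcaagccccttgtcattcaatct
Gins3: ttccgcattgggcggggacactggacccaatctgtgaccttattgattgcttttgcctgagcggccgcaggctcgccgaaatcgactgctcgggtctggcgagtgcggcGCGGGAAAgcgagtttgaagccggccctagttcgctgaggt
Pola1: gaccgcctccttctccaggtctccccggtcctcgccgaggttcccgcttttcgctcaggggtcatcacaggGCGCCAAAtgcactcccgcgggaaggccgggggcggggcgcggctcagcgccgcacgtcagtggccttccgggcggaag
Rfc3: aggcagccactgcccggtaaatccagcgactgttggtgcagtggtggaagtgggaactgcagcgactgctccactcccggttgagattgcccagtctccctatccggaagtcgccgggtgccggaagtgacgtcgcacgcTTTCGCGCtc
The runs of Orc3, Gins3 and Rfc3 end at the base before the start site. In Rfc3 the match lies 10 to 3 bases before it, in Orc3 and Gins3 41 to 34 bases, in Cdc6 and Pola1 138 to 131 bases and in Mcm7 165 to 158 bases.

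Tumors were first compared with skin, to ask which parts of the replication machinery differ between the carcinomas and their tissue of origin. Of the 44 genes, 43 were called higher in tumors at an adjusted p under 0.05 and none lower, where 17.7% of all genes were called higher. The median log2 difference was 1.75, against 0.02 over all genes, and single genes ranged between 0.48 (Orc2) and 3.48 (Cdc6). In 34 of 44 genes every tumor lay above every skin sample, which held for 6.9% of all genes. Pold1, the catalytic subunit of polymerase delta, was the gene not called (1.16 ± 0.51, SE, adjusted p = 0.0842). Per array, the median over the 44 genes of the level minus the mean of skin was 0.89 to 2.29 in the 15 tumors and -0.20 to 0.14 in the 5 skin samples.

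**Figure D1:**
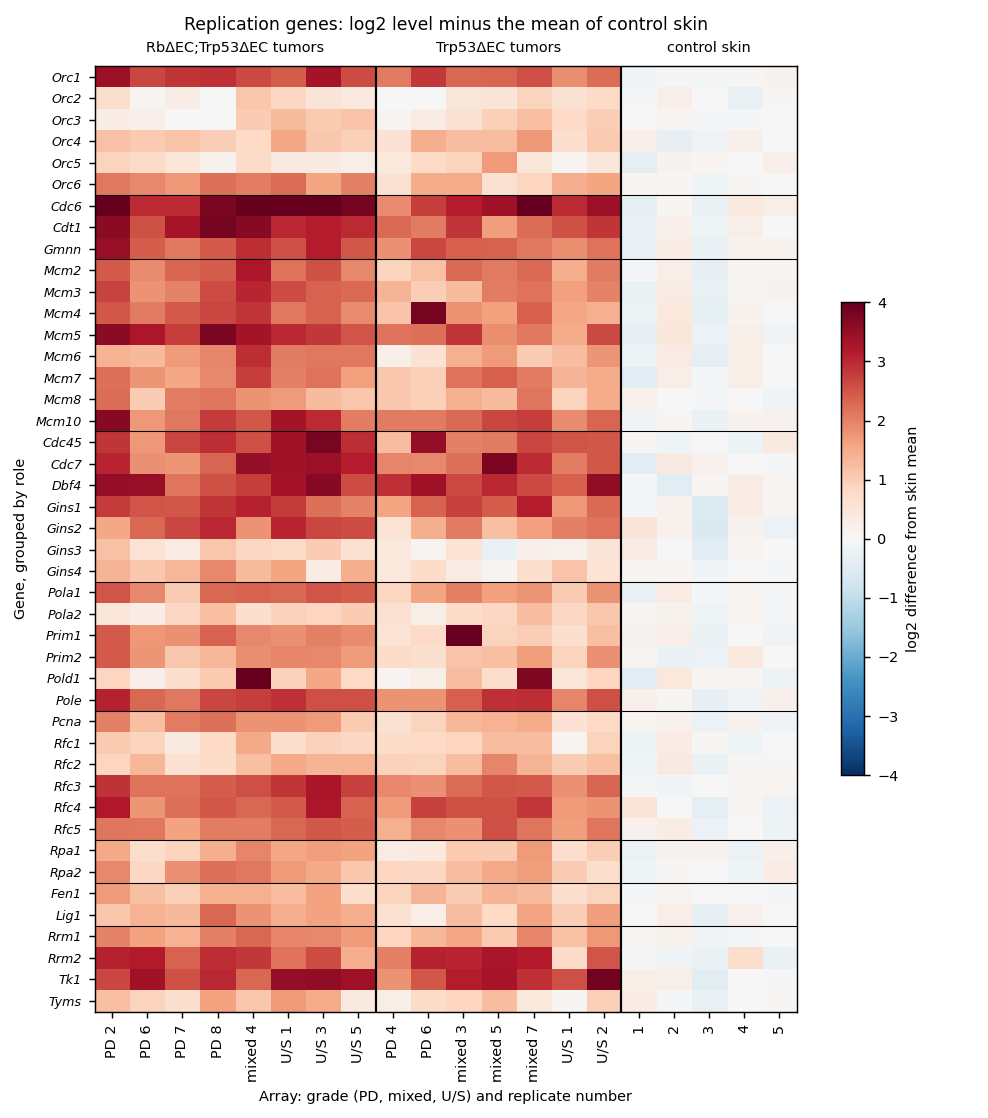
Log2 level of each of 44 replication genes (rows, grouped by role) minus its mean in 5 skin samples, in 8 RbΔEC;Trp53ΔEC tumors, 7 Trp53ΔEC tumors and 5 skin samples (columns, with PD for poorly differentiated and U/S for undifferentiated/spindle). Colours end at 4 in either direction. Nearly all squares of tumors are red, between pale rows such as Orc2 (log2 difference of tumors 0.48) and dark rows such as Cdc6 (3.48), with single dark squares for Prim1, Pold1 and Mcm4.

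On the probesets used, the origin recognition complex split by subunit. Other probesets gave another order, with Orc1 at 0.59 and Orc2 at 1.66 and 2.02. Orc1, the ATPase subunit whose level follows the cell cycle, was 6.03 in the lowest, 6.78 in the median and 7.57 in the highest tumor, against 4.07, 4.12, 4.12, 4.20 and 4.30 in skin. No tumor came within 1 log2 unit of skin, and the difference was 2.60 ± 0.19 (6.08-fold, adjusted p = 1.92e-09). Orc2, part of the stable core that stays on chromatin, was 7.51 in the lowest, 8.04 in the median and 8.65 in the highest tumor, against 7.23, 7.50, 7.56, 7.57 and 7.80 in skin. Here 4 of 15 tumors lay within the range of skin, and the difference was 0.48 ± 0.17 (1.39-fold, adjusted p = 0.0312). The other core subunits Orc3, Orc4 and Orc5 differed by 0.66, 1.11 and 0.59, and Orc6, the small subunit that bridges ORC to Cdt1, by 1.60, each called higher. Of the 6 subunits, 3 separated tumors from skin in all samples (Orc1, Orc4 and Orc6).

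All 3 genes of helicase loading and its inhibition were called higher, by 2.47 to 3.48. Cdc6, the loader ATPase that brings MCM rings to ORC, was 6.33 in the lowest, 7.86 in the median and 8.91 in the highest tumor, against 4.06, 4.16, 4.52, 4.67 and 4.83 in skin. The groups did not overlap, and the difference of 3.48 ± 0.32 (11.1-fold, adjusted p = 3.91e-08) was the largest among the 44 genes. Cdt1, which delivers MCM2-7, differed by 2.84 ± 0.28 (7.15-fold). Gmnn, which encodes geminin, the inhibitor that binds Cdt1 after S phase has begun, was raised with them. It was 8.72 in the lowest, 9.33 in the median and 10.38 in the highest tumor, against 6.59, 6.63, 7.03, 7.06 and 7.20 in skin, a difference of 2.47 ± 0.21 (5.53-fold, adjusted p = 1.81e-08). Loaders and inhibitor were thus higher together, and every tumor lay above skin in each of the 3 genes.

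The 8 MCM genes were all called higher, by 1.50 to 2.69. Mcm5, a subunit of the hexameric helicase, was 9.42 in the lowest, 10.68 in the median and 11.69 in the highest tumor, against 7.58, 7.69, 7.78, 8.17 and 8.38 in skin. Tumors and skin did not overlap, with a difference of 2.69 ± 0.30 (6.47-fold, adjusted p = 5.73e-07). Its partners Mcm2, Mcm3, Mcm4, Mcm6 and Mcm7 differed by 2.08, 2.05, 2.18, 1.57 and 1.84, so the 6 subunits of the ring moved within a span of about 1 log2 unit. Mcm8, a helicase of recombination repair outside the ring, differed least. It was 5.47 in the lowest, 6.0 in the median and 6.82 in the highest tumor, against 4.42, 4.50, 4.60, 4.60 and 4.73 in skin (1.50 ± 0.21, 2.84-fold, adjusted p = 1.36e-05). Mcm10, a scaffold that joins the helicase to polymerase alpha, differed by 2.48. In Mcm6 alone of the 8 a tumor (Trp53ΔEC tumor 4, at 9.24) lay within the range of skin, where 9.36 was the highest value.

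Helicase activation showed the widest spread. Dbf4, the subunit that switches on the Cdc7 kinase, was 8.41 in the lowest, 9.18 in the median and 9.88 in the highest tumor, against 5.80, 6.21, 6.33, 6.38 and 6.56 in skin, a difference of 2.97 ± 0.22 (7.83-fold, adjusted p = 2.16e-09). Cdc7 itself differed by 2.65 and Cdc45, which rides with the MCM ring, by 2.63. The 4 GINS subunits did not move alike. Gins1 and Gins2 differed by 2.47 and 2.04, but Gins4 by 0.95 and Gins3 by 0.54. Gins3 was 5.77 in the lowest, 6.56 in the median and 7.21 in the highest tumor, against 5.62, 6.01, 6.03, 6.12 and 6.36 in skin, with 5 of 15 tumors inside the range of skin (0.54 ± 0.19, 1.45-fold, adjusted p = 0.0323). Gins3 and Orc2 were the calls nearest to the threshold. Both were lost with arrays centred on their median, under quantile normalization and with the Actb 3′ to 5′ signal difference as a covariate (adjusted p of 0.051 to 0.0984), Orc2 also without skin sample 1, 3, 4 or 5 (0.0558 to 0.105) and Gins3 without skin sample 2, 3, 4 or 5 (0.0519 to 0.117).

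Among the polymerases, Pole showed the largest difference and Pola2, the accessory subunit of polymerase alpha, the smallest. Pole, the catalytic subunit of polymerase epsilon, was 7.77 in the lowest, 8.57 in the median and 9.07 in the highest tumor, against 5.67, 5.83, 6.05, 6.18 and 6.21 in skin (2.49 ± 0.20, 5.62-fold, adjusted p = 5e-09). Pola2 was 7.29 in the lowest, 7.87 in the median and 8.28 in the highest tumor, against 6.88, 6.97, 7.12, 7.12 and 7.18 in skin, a small difference without overlap (0.79 ± 0.14, 1.72-fold, adjusted p = 0.000166). With the median of its probesets Pola2 was not called (0.63, adjusted p = 0.0687). Pola1, the catalytic subunit beside it, differed by 1.87 and the primase subunits Prim1 and Prim2 by 1.67 and 1.48. Pold1 and Prim1 held the tumors farthest from the rest, described at the end.

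Pcna, the sliding clamp itself, was 11.77 in the lowest, 12.57 in the median and 13.37 in the highest tumor, against 10.94, 11.03, 11.25, 11.32 and 11.34 in skin (1.39 ± 0.24, 2.62-fold, adjusted p = 0.00011). Of its loader, the small subunits Rfc3, Rfc4 and Rfc5 differed by 2.41, 2.39 and 2.06, Rfc2 by 1.17 and the large subunit Rfc1 by 0.86. Rfc3 was 8.11 in the lowest, 8.69 in the median and 9.55 in the highest tumor, against 6.18, 6.25, 6.28, 6.32 and 6.39 in skin, a gap wider than the range of either group (5.32-fold, adjusted p = 3.15e-09). Rfc1 was 8.25 in the lowest, 8.99 in the median and 9.64 in the highest tumor, against 7.92, 7.95, 8.15, 8.17 and 8.46 in skin, with 1 tumor inside the range of skin (1.81-fold, adjusted p = 0.000308).

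The genes of single-strand binding and of Okazaki fragment joining differed by a moderate and even amount. Rpa1, the large subunit of replication protein A, was 10.54 in the lowest, 11.26 in the median and 12.16 in the highest tumor, against 9.96, 9.96, 10.35, 10.35 and 10.39 in skin (1.17 ± 0.23, adjusted p = 0.000463). Rpa2, its middle subunit, was 8.30 in the lowest, 9.09 in the median and 9.80 in the highest tumor, against 7.40, 7.40, 7.61, 7.65 and 7.87 in skin (1.40 ± 0.23, adjusted p = 6.2e-05). Both lay clear of skin in every tumor. Fen1, the flap nuclease, was 10.11 in the lowest, 10.67 in the median and 11.12 in the highest tumor, against 9.37, 9.38, 9.41, 9.42 and 9.54 in skin (1.18 ± 0.14, adjusted p = 2.34e-06). Lig1, the ligase that seals the nick, was 8.31 in the lowest, 9.43 in the median and 10.34 in the highest tumor, against 7.66, 8.04, 8.04, 8.22 and 8.31 in skin (1.30 ± 0.23, adjusted p = 0.000177), the lowest tumor touching the highest skin sample.

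Of the 4 genes of deoxynucleotide supply, Tk1, the thymidine salvage kinase of S phase, differed most. It was 8.10 in the lowest, 9.30 in the median and 10.15 in the highest tumor, against 5.87, 6.23, 6.29, 6.52 and 6.58 in skin (2.96 ± 0.25, 7.77-fold, adjusted p = 1.81e-08). The ribonucleotide reductase subunits Rrm1 and Rrm2 differed by 1.63 and 2.57, the second being the subunit that limits the enzyme in the cell cycle. Tyms, thymidylate synthase, was read from a dim probeset. It was 3.98 in the lowest, 4.83 in the median and 5.62 in the highest tumor, against 3.64, 3.84, 3.96, 3.96 and 4.23 in skin, and 2 tumors fell within the range of skin (0.90 ± 0.23, 1.87-fold, adjusted p = 0.00391). A second Tyms probeset is annotated to a further gene as well and was not used.

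Genes that work beside these 44 were higher too. Of 18 other firing and fork protection factors, 17 were called higher and none lower, with Clspn, the claspin adaptor of the checkpoint, at 2.51, Topbp1, which helps Cdc45 load, at 1.91 and Atad5, which unloads PCNA, at 2.26. All 7 genes of histone supply and chromatin assembly were called higher, among them Uhrf1, the reader of hemimethylated DNA, at 2.66, the histone chaperone Asf1b at 1.87 and the CAF-1 subunit Chaf1b at 2.29. Of 9 other polymerase and helicase subunits 6 were called higher and none lower, with Pole2 at 1.57, Rpa3 at 1.15 and Mcmbp, a partner of the MCM ring, at 0.66. Of 8 other nucleotide enzymes 5 were called higher, led by the dUTPase Dut at 1.87, the deoxycytidine kinase Dck at 1.71 and Shmt1 of folate metabolism at 1.46. In the E2F and Rb pathway 8 of 12 were called higher and 1 lower. E2f7, a repressor of the family, was at 2.80, Ccna2, the cyclin of S and G2 phase, at 2.63 and the Rb relative Rbl1 at 1.62, whereas Rbl2, the relative that serves in resting cells, was lower by 0.81 (log2 difference -0.81, adjusted p = 0.00648). All 17 mitosis genes were called higher, with a median of 2.82 and with Bub1, a kinase of the spindle checkpoint, at 4.30, Cdc20, the activator of the anaphase promoting complex, at 3.05 and Ube2c, its ubiquitin carrier, at 2.82.

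Histological grade was compared next. Against skin, 41 of the 44 genes were called higher in poorly differentiated tumors (19.2% of all genes), 42 in mixed tumors (21.9%) and 42 in undifferentiated/spindle tumors (22%), with medians of 1.64, 1.94 and 1.82. These 3 comparisons share the skin samples. The genes not called were Orc2, Orc3 and Pold1 in poorly differentiated, Gins3 and Gins4 in mixed and Orc5 and Pold1 in undifferentiated/spindle tumors.

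Between undifferentiated/spindle and poorly differentiated tumors 1 of 44 genes was called higher and none lower, where 12.7% of all genes were called higher and 9.9% lower. The gene was Orc3, a core subunit of ORC. It was 8.71, 8.97 and 9.18 at the lowest, median and highest of 5 undifferentiated/spindle tumors, 7.91, 8.08 and 8.22 in 6 poorly differentiated tumors, 8.55, 8.90 and 9.13 in 4 mixed tumors and 7.86, 7.87, 7.93, 7.94 and 8.02 in skin. Of the 6 poorly differentiated tumors 3 lay above the highest skin sample and 3 did not (log2 difference 0.15, adjusted p = 0.283, not called), and the other tumors lay above both without overlap. The difference by grade was 0.89 ± 0.11 (1.85-fold, 95% interval 0.65 to 1.12, adjusted p = 0.000141). Markers of other cell types moved with grade as well, with 6 of 9 macrophage and 4 of 7 endothelial markers called higher, 1 of 8 fibroblast markers and 1 of 6 T and NK cell markers called higher, and 10 of 11 epidermal, 1 of 7 adipocyte and 1 of 7 hair markers called lower. Mean endothelial levels were 6.90 to 8.05 in undifferentiated/spindle and 5.66 to 7.18 in poorly differentiated tumors. Mean macrophage levels were 10.77 to 11.26 in undifferentiated/spindle, 7.55 to 10.58 in poorly differentiated and 7.84 to 8.89 in mixed tumors. The part of these cell types in the Orc3 difference was not tested. The Actb 3′ to 5′ difference, a sign of RNA integrity, was 0.24 to 0.38 in undifferentiated/spindle and 0.42 to 0.82 in poorly differentiated tumors, and Orc3 remained called with it as a covariate.

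The next smallest p-values by grade belonged to Rfc2 (0.41, adjusted p = 0.0556), Orc2 (0.44, adjusted p = 0.0572), Tk1 (0.72, adjusted p = 0.0946) and Cdc7 (0.75, adjusted p = 0.0977), none of which passed. Rrm2 ran the other way, with -0.87 (adjusted p = 0.0983). For the licensing genes the intervals were wide. Cdt1 differed by -0.03 (95% interval -0.72 to 0.67), Gmnn by -0.05 (-0.69 to 0.59) and Mcm2 by 0.18 (-0.52 to 0.88). The count of calls rested on single tumors. It was 4 (Orc3, Cdc7, Rfc2 and Tk1) without Trp53ΔEC tumor 1, 3 without RbΔEC;Trp53ΔEC tumor 2 (Orc3, Orc2 and Cdc7), 3 without RbΔEC;Trp53ΔEC tumor 6 (Orc3, Rfc2 and Tk1) and 2 without RbΔEC;Trp53ΔEC tumor 8 (Orc3 and Pola2).

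**Figure D2:**
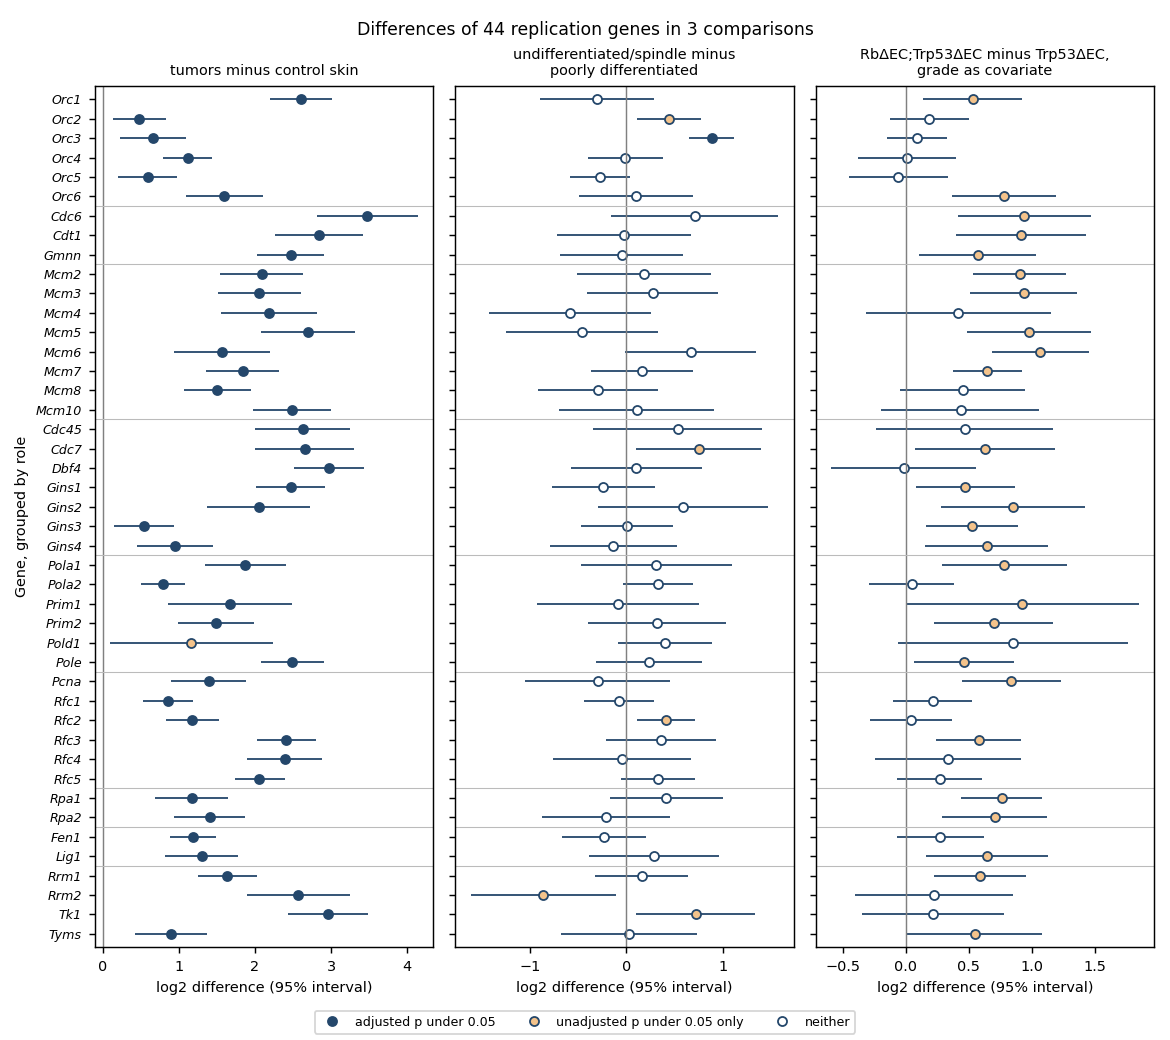
Log2 differences with 95% intervals of 44 replication genes (rows, grouped by role) for 15 tumors minus 5 skin samples, for 5 undifferentiated/spindle minus 6 poorly differentiated tumors and for 8 RbΔEC;Trp53ΔEC minus 7 Trp53ΔEC tumors with grade as covariate. Filled points have an adjusted p under 0.05, tinted points an unadjusted p under 0.05 only, and the axes differ between panels. All points of the first panel but Pold1 are filled, Orc3 alone is filled in the second, and in the third 26 are tinted, all to the right of 0.

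The genotypes were then compared, to ask what the further loss of Rb1 adds on the Trp53-deficient background. Each genotype was compared with the same skin samples. In RbΔEC;Trp53ΔEC tumors 41 genes were called higher (15.7% of all genes) with a median of 2.00, and in Trp53ΔEC tumors 41 (15.6%) with a median of 1.45. The direct comparison called none of the 44 at an adjusted p under 0.05 or 0.1, in either direction. At an unadjusted p under 0.05, 20 of 44 were higher in RbΔEC;Trp53ΔEC tumors and none lower, where 2.65% of all genes were higher and 2.64% lower. The difference was positive for 39 genes, with a median of 0.48 (all genes -0.01) and a range of -0.19 to 0.94. With grade as a covariate 26 were higher and none lower (all genes 4.02% and 3.79%), among them all 20 of the first fit. The difference was then positive for 42 genes, with a median of 0.56, and 1 gene (Mcm6) passed an adjusted p under 0.1, as did 0.0275% of all genes.

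Without grade, the 5 smallest p-values were those of Orc6, Cdt1, Mcm5, Mcm3 and Gins3. Orc6 was 8.87 in the lowest, 9.33 in the median and 9.54 in the highest RbΔEC;Trp53ΔEC tumor, against 7.89, 8.74 and 8.88 in Trp53ΔEC tumors, with 1 Trp53ΔEC tumor just above the lowest double mutant (0.82 ± 0.18, adjusted p = 0.235). Cdt1 was 10.54, 11.21 and 11.80 in RbΔEC;Trp53ΔEC and 9.66, 10.23 and 10.84 in Trp53ΔEC tumors (0.90 ± 0.21, adjusted p = 0.33). Mcm5 was 10.44, 11.04 and 11.69 against 9.42, 10.09 and 10.79 in Trp53ΔEC tumors (0.94 ± 0.22, adjusted p = 0.33). In these 3 genes the highest Trp53ΔEC tumor lay above the lowest RbΔEC;Trp53ΔEC tumor and below their median. Mcm3 (0.78 ± 0.21, adjusted p = 0.567) and Gins3 (0.55 ± 0.15, adjusted p = 0.576) followed.

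With grade, the smallest p-values belonged to the helicase ring. Mcm6 was 10.32 in the lowest, 11.04 in the median and 11.99 in the highest RbΔEC;Trp53ΔEC tumor, against 9.24, 10.26 and 10.79 in Trp53ΔEC tumors (1.06 ± 0.18, 95% interval 0.68 to 1.45, adjusted p = 0.0789). Within each grade its mean was higher in RbΔEC;Trp53ΔEC tumors, with 10.62 against 9.42 in Trp53ΔEC among poorly differentiated, 11.99 (1 tumor) against 10.42 among mixed and 11.13 against 10.52 among undifferentiated/spindle tumors. Mcm2 (0.90 ± 0.17, adjusted p = 0.134), Mcm7 (0.65 ± 0.13, adjusted p = 0.134), Rpa1 (0.76 ± 0.15, adjusted p = 0.134) and Mcm3 (0.94 ± 0.20, adjusted p = 0.169) came next. Mcm6 and Mcm2 passed an adjusted p under 0.05 without Trp53ΔEC tumor 2 (0.0272 and 0.0287), and Mcm6 was at 0.92 (adjusted p = 0.329) without RbΔEC;Trp53ΔEC tumor 4, its highest value.

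By role, the unadjusted counts with grade were 3 of 3 for helicase loading, 5 of 8 for the MCM genes, 5 of 7 for helicase activation, 4 of 6 for polymerases and primase, 2 of 2 for single-strand binding, 1 of 2 for Okazaki fragments, 2 of 4 for nucleotide supply, 2 of 6 for the clamp and its loader (Pcna and Rfc3) and 2 of 6 for ORC (Orc1 and Orc6). Of all genes 4.02% were higher at this threshold. The core subunits Orc2, Orc3, Orc4 and Orc5 lay at 0.19, 0.09, 0.01 and -0.06. Some genes with large differences from skin showed small ones between genotypes. Dbf4, Tk1 and Rrm2, at 2.97, 2.96 and 2.57 against skin, lay at -0.02 (95% interval -0.59 to 0.56), 0.22 (-0.35 to 0.78) and 0.22 (-0.40 to 0.85) between genotypes. Of the 9 genes with an E2F-type match 8 were higher at an unadjusted p under 0.05 with grade, and of the 27 with a window and no match 12 were. Of the 8 without a window 6 were, so the motif status of these is not known here. The median differences were 0.65, 0.47 and 0.52, in that order. The differences between these classes were not tested.

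Within the grades the counts were as follows. Among poorly differentiated tumors the difference was positive for 39 of 44 genes with a median of 0.62, and all 4 RbΔEC;Trp53ΔEC tumors lay above both Trp53ΔEC tumors in 20 genes (7.69% of all genes). Among undifferentiated/spindle tumors it was positive for 42 with a median of 0.47, and all 3 lay above both in 23 genes (13.3%). None of the 44 genes lay wholly the other way in these 2 grades, where 8.49% and 12.7% of all genes did. Among mixed tumors 1 RbΔEC;Trp53ΔEC sample was set against 3 Trp53ΔEC samples. The difference was positive for 34 genes with a median of 0.40, the RbΔEC;Trp53ΔEC tumor lay above all 3 in 24 genes (24.3% of all genes) and below all 3 in 6, namely Orc4, Pola2, Rfc2, Rfc4, Rrm2 and Tk1 (26.1% of all genes). The interaction of genotype and grade called none of the 44 genes and none of all genes by limma, with 0 of the 44 and 1283 of all genes at an unadjusted p under 0.05.

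Skeletal muscle markers leaned with genotype as well, though none of the 10 was called at an adjusted p under 0.05 or 0.1. Of these 10, 8 were lower in RbΔEC;Trp53ΔEC tumors at an unadjusted p under 0.05 (median -1.79), where 2.64% of all genes were lower. Mean levels overlapped, with 4.94 to 6.31 in RbΔEC;Trp53ΔEC and 5.07 to 8.88 in Trp53ΔEC tumors. With the mean muscle level as a covariate, chosen after these values were seen, the count of 20 became 9 (1.48% of all genes) and that of 26 with grade became 17 (3.29%), and the medians were 0.38 and 0.48. The epidermal, adipocyte, fibroblast, macrophage and endothelial lists held 0 or 1 gene each at an unadjusted p under 0.05 between genotypes. The T and NK cell and the hair lists held 0 each. All 6 T and NK cell and all 7 hair markers were on the higher side in RbΔEC;Trp53ΔEC tumors, with medians of 0.51 and 0.66. With grade these were 5 of 6 and 7 of 7, with medians of 0.12 and 0.30. With grade, all 11 epidermal and all 9 macrophage markers were on the lower side in RbΔEC;Trp53ΔEC tumors, with medians of -0.97 and -0.60 and with 0 and 1 of them at an unadjusted p under 0.05. The part of these cell types in the differences was not tested.

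Of the neighbouring lists, with grade, 7 of 18 firing and fork protection factors were higher in RbΔEC;Trp53ΔEC tumors at an unadjusted p under 0.05 and none lower, among them Dscc1, part of an alternative clamp loader, at 1.24 (adjusted p = 0.134). So were 4 of 7 genes of histone supply and chromatin assembly, 2 of 9 other polymerase and helicase subunits, 1 of 8 nucleotide enzymes and 2 of 12 genes of the E2F and Rb pathway, where Ccne2, the cyclin of the G1/S transition, lay at 1.35 (adjusted p = 0.348). Of 17 mitosis genes 2 were higher with grade and 0 without it, with medians of 0.31 and 0.20. Whether the lists differ from each other was not tested.

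**Figure D3:**
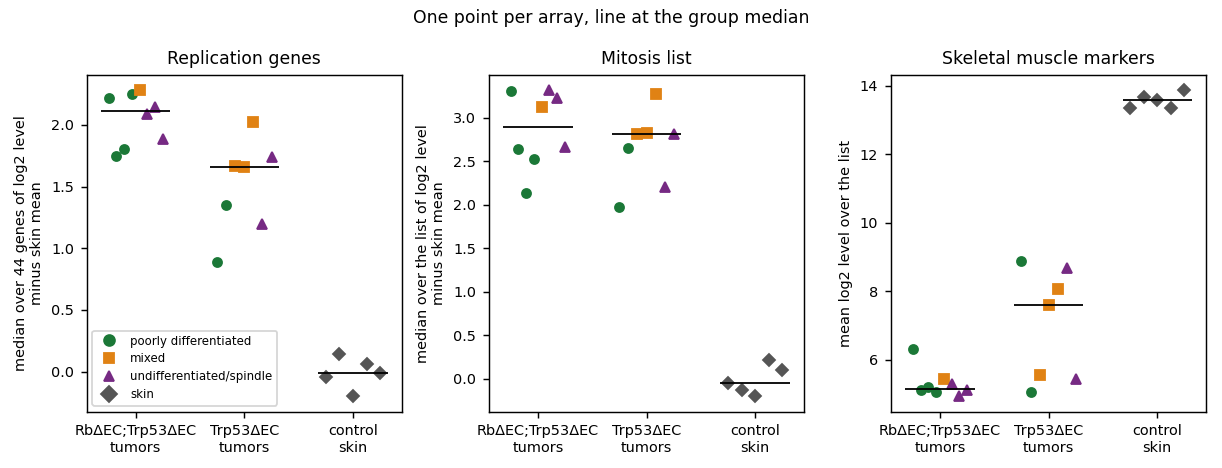
One point per array for 8 RbΔEC;Trp53ΔEC tumors, 7 Trp53ΔEC tumors and 5 skin samples, marked by grade, with a line at each group's median. Left and middle, the median over the 44 replication genes and over 17 mitosis genes of the log2 level minus the mean of skin, and right, the mean log2 level of 10 skeletal muscle markers. RbΔEC;Trp53ΔEC tumors lie at 1.75 to 2.29 in the left panel against 0.89 to 2.03 in Trp53ΔEC tumors, the mitosis values of the genotypes overlap widely, and some Trp53ΔEC tumors hold more muscle RNA.

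Last, single tumors stood far from the rest in single genes. After the values were seen, each gene was searched for 1 or 2 tumors at least 0.75 above the next one, and 5 genes were found. They serve synthesis (Pold1, Prim1), the helicase (Mcm4, Mcm6) and ORC (Orc5). Pold1 was 11.78 in RbΔEC;Trp53ΔEC tumor 4 and 11.50 in Trp53ΔEC tumor 7, both mixed, against 7.90 to 9.33 in the other 13 tumors. Prim1 was 11.79 in Trp53ΔEC tumor 3, also mixed, against 8.39 to 10.27 elsewhere. Mcm4 was 12.64 in Trp53ΔEC tumor 6 against 9.94 to 11.67, Mcm6 was 11.99 in RbΔEC;Trp53ΔEC tumor 4 against 9.24 to 11.15, and Orc5 was 9.57 in Trp53ΔEC tumor 5 against 7.99 to 8.77. The second probeset of Pold1 showed the same tumors at 10.51 and 10.38 against at most 8.25 in the others, that of Prim1 showed 11.80 against at most 10.52, and that of Mcm4 12.15 against at most 10.97.

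The genes on either side of these loci were read in the same tumors, in RefSeq order. Directly beside Pold1, Spib, an ETS factor of B cells, was 8.35 in RbΔEC;Trp53ΔEC tumor 4 and 8.73 in Trp53ΔEC tumor 7 against at most 4.92 in the other tumors, and Napsa, an aspartic protease, was 11.39 and 11.71 against at most 8.68. Both flanking genes were thus more than 4 log2 units above the median of the other tumors. Next to Napsa, Myh14 was at 9.22 in Trp53ΔEC tumor 7 but at 7.43 in RbΔEC;Trp53ΔEC tumor 4, against at most 8.20 in the other tumors. Around Prim1 in Trp53ΔEC tumor 3, the next 4 genes on one side, Naca, Atp5b, Baz2a and Rbms2, were each higher than in any other tumor. They lay 1.42, 1.31, 1.46 and 2.21 above the median of the others. None of the 8 nearest genes on the other side was highest there, but Zbtb39, 9 genes from Prim1, was 10.33 against at most 7.62. Of the 8, Rdh9 was 7.57 against a median of 4.79 and a highest value of 9.06 elsewhere. Others were dim in all tumors, such as Rdh7, at 3.49 there and at most 3.93 elsewhere. Timeless, a fork protection factor 7 genes from Prim1, was 9.55 there against a median of 8.14. Around Mcm4 in Trp53ΔEC tumor 6, Ube2v2, Prkdc, Mzt2 and Cebpd were above all other tumors, by 2.61, 2.10, 3.02 and 1.85 over their median. Prkdc encodes the DNA-dependent protein kinase and shares its start region with Mcm4.

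Of the 20 nearest measured genes, 9 were highest in the tumor with the far value at Mcm4 (45%, where this tumor was the highest for 7.04% of all genes), 7 at Prim1 (35%, against 6.33%), 5 and 7 at Pold1 in RbΔEC;Trp53ΔEC tumor 4 and Trp53ΔEC tumor 7 (25% and 35%, against 11.5% and 11.3%), 10 at Orc5 (50%, against 10.9%) and 5 at Mcm6 (25%, against 9.03%). At Pold1, each tumor was compared without the other tumor with a far Pold1 value, for the neighbours and for all genes. Gene copy number was not measured on these arrays, and what the shared levels come from was not tested.

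**Figure D4:**
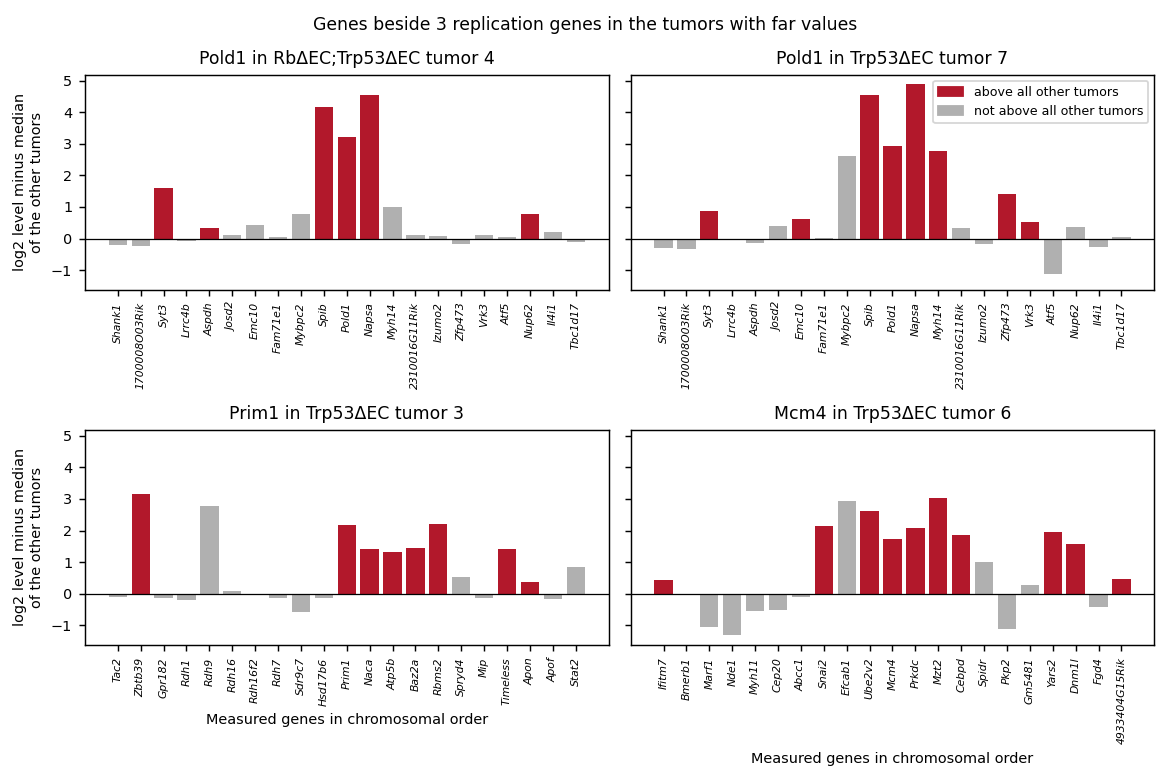
Log2 level in the named tumor minus the median of the other tumors, for Pold1, Prim1 and Mcm4 and the 10 measured genes on each side. Genes are in chromosomal order (not to distance), and those above all other tumors are in red. For Pold1, the other tumors leave out both tumors with a far value. Spib and Napsa rise with Pold1 in both tumors by more than 4. A run of 4 red bars follows Prim1 on one side, and Zbtb39 is red on the other. Red bars lie on both sides of Mcm4.

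These tumors weighed on the comparisons. Without RbΔEC;Trp53ΔEC tumor 4 and Trp53ΔEC tumor 7, Pold1 was called higher in tumors than in skin (0.75 ± 0.20, adjusted p = 0.00748), in place of 1.16 ± 0.51 with them. Without Trp53ΔEC tumor 3, Prim1 differed between genotypes by 1.15 ± 0.14 (adjusted p = 0.00575, and 1.16 with an adjusted p = 0.0134 with grade), in place of 0.71 ± 0.41 with it. Prim1 was 9.58 to 10.27 in the 8 RbΔEC;Trp53ΔEC tumors, against 8.39 to 9.04 in the other 6 Trp53ΔEC tumors, and these did not overlap. Mcm4 without Trp53ΔEC tumor 6 differed by 0.90 ± 0.17 with grade (adjusted p = 0.184), in place of 0.41 ± 0.34, and was not called. The tumors were left out because of these same genes, so the values without them are descriptions. With the 4 tumors that stood apart in Pold1, Prim1 and Mcm4 left out together, 43 of the 44 genes were called higher against skin and 19 were higher between genotypes at an unadjusted p under 0.05.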

How the data were processed

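Total RNA was labelled and hybridized to Affymetrix MOE430 2.0 arrays, 1 per sample. The deposited values are log2 intensities that the authors made with RMA, which corrects background, normalizes quantiles and summarizes probes. The version and the annotation build are not given in the sources used here. Of 45101 probesets, 64 array controls were left out, 34945 carried 1 gene symbol, 932 several and 9160 none; 18193 genes were tested on their probeset of highest mean. The number of arrays limits the precision.

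Comparisons were fitted with limma 3.58.1 (lmFit, eBayes) in R 4.3.3. Tumors were compared with skin, and the genotypes and grades with each other, in 2-group fits of these samples alone (mixed tumors left out by grade), a second genotype fit had grade as a covariate, classes were compared with skin in fits over all 20 arrays, and p-values were adjusted by Benjamini-Hochberg over all 18193 genes. Calls use an adjusted p under 0.05, for genotype also 0.1. The script was tested on simulated data. Some genes of the neighbouring and marker lists are not analysed here. Member genes, lists and tests were chosen with earlier results of these data known. Sample values were named for the most and least changed gene of each role against skin, for the 5 smallest p-values by grade and genotype and for the 3 smallest of each neighbouring list; far values of single tumors and the muscle covariate were chosen after the data were seen. Promoter windows came from RefSeq GRCm38.p6. Plots used matplotlib 3.10.9 in Python 3.11.15. Alternatives were the median of probesets, a test over all probesets, array centring, quantile normalization, a mean of at least 5, an intensity trend, the Actb 3′ to 5′ difference, the methods' t-test, a replicate block, other thresholds and grade groupings and leaving out each sample.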

Additional observations from a re-analysis of the deposited data

Results flagged for a closer look

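In 264 groups of 4 to 8 samples (44 genes in 6 groups), a sample lay far from the others by the ratio of its gap to the range in 6 groups of 5 genes. Chance gives about 1 in 20, here 13.2 groups, so the 6 found are fewer than chance gives and are listed as values. Pold1 was 11.78 in RbΔEC;Trp53ΔEC tumor 4 and 11.5 in Trp53ΔEC tumor 7, each the highest of its genotype, and Prim1 was 11.79 in Trp53ΔEC tumor 3, the highest of 7. Pola1 was 7.55 in RbΔEC;Trp53ΔEC tumor 7, the lowest of 8. Prim2 was 7.35 in Trp53ΔEC tumor 1, the lowest of 5 undifferentiated/spindle tumors. Rrm2 was 9.0 in skin sample 4, the highest of 5. No gene had genotype differences that ran wholly in opposite directions in poorly differentiated and undifferentiated/spindle tumors.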

How the results depend on the processing

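Against skin, 43 genes were called higher in tumors, and the count was 41 to 43 without single samples, 40 to 44 under the other planned settings at the same threshold and 12 at an adjusted p under 3e-07. With the least changed probeset of each gene, a choice made after seeing the data, it was 40, with 1 called lower (Orc3). Without single samples the count was 40 to 41 for poorly differentiated, 41 to 42 for mixed, 40 to 42 for undifferentiated/spindle, 40 to 43 for RbΔEC;Trp53ΔEC and 37 to 41 for Trp53ΔEC tumors.

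By grade, 1 gene was called higher, with a range of 1 to 4 without single samples. It was 3 with arrays centred on their median, 3 with mixed tumors added to undifferentiated/spindle and 0, with 1 lower, with mixed tumors added to poorly differentiated (Orc3 at 0.57, adjusted p = 0.0906). With the median of probesets, 1 gene was called lower. The cause was not tested.

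By genotype, no gene was called, with a range of 0 to 1 without single samples and 0 to 2 with grade. At an adjusted p under 0.1 the fit with grade called 1. The 20 genes higher at an unadjusted p under 0.05 became 15 to 21 without single samples, 19 in poorly differentiated tumors alone, 16 in undifferentiated/spindle tumors alone and 9 with the muscle markers as a covariate. The 26 with grade became 20 to 26 without single samples and 17 with the muscle markers. None was lower in any of these.

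Whether the replicate numbers pair the tumors cannot be told here. Correlations of deviations between like-numbered tumors ran from -0.48 to 0.64, and unlike numbers were not compared. With a replicate block 43 genes were called higher against skin and none between genotypes, 14 were higher between genotypes at an unadjusted p under 0.05 and 26 with grade, 42 were called higher in RbΔEC;Trp53ΔEC and 41 in Trp53ΔEC tumors against skin. The 7 Trp53ΔEC and 8 RbΔEC;Trp53ΔEC tumors, unevenly spread over grades, and dim probesets such as that of Tyms limit what can be seen.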

Other observations

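Other probesets of the same genes did not always show the same difference between tumors and skin. Orc1, at 2.60 on the probeset used, was at 0.59 (adjusted p = 0.00721 over all probesets) on a dimmer one. Orc2, at 0.48 on the probeset used (mean level 7.889), was at 1.66 on a nearly equally bright one (7.845). On a dimmer one (5.985) it was at 2.02. Rfc1, at 0.86, was at 2.85 on a dimmer one. Orc3 was at 0.64 on another probeset and at -0.75 (adjusted p = 0.00122 over all probesets) on the dimmest, and its difference by grade was 0.81 and 0.37 on these. By grade, Orc4 was at -0.01 on the probeset used. On dimmer ones it was at -0.64 (adjusted p = 0.000312 over all probesets), -0.34 and -0.27. Against skin, a second probeset of Cdc45 lay at -0.01, where the one used lay at 2.63. The transcripts that these probesets read were not examined here.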
